A study of Mus musculus with 14 samples.

Results

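Interleukin 1 (IL-1) signalling was described through 10 genes, Il1a, Il1b, Il1rn, Il1r1, Il1r2, Il1rap, Il18, Il18bp, Nlrp3 and Casp1, chosen by name out of the 12924 genes of the deposited tables. Each of the 10 had a row in both tables and passed the filter on low values in both. RNA had been sequenced from 14 libraries of Lewis lung carcinoma (LLC), a mouse lung tumor line grown for 14 days in the flank. The hosts were p110g-/- mice, which lack PI3K gamma, the PI3K catalytic subunit of leukocytes encoded by Pik3cg, or wild-type (WT) mice, both on the C57BL/6 background. Whole tumor, 30 mg a library, was taken from 3 p110g-/- and 3 WT tumors, and 1000000 CD11b+Gr1- cells a library, called tumor-associated macrophages (TAM) by the submitters, were sorted for 4 p110g-/- and 4 WT libraries. The labels give the deletion for the mice and not for the implanted LLC cells, name no treatment or age, and do not say that each library came from its own animal, so p-values measure the spread between libraries, which may be technical.

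IL-1 alpha (Il1a) and IL-1 beta (Il1b) are alarm cytokines that bind the same signalling receptor, Il1r1, which needs the accessory chain Il1rap. The antagonist Il1rn occupies that receptor without signalling, and the type II receptor Il1r2 is a decoy that captures ligand. IL-1 beta and IL-18 are made as inactive precursors and cut by caspase-1 (Casp1) in the inflammasome, for which Nlrp3 is a sensor, and Il18bp is a secreted protein that neutralises IL-18. In tumors, macrophages and neutrophils are known sources of IL-1 beta, and stromal cells and endothelium respond to it.

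The values are normalized counts, that is, gene counts that the authors scaled by a single factor per library. Library totals ranged between 33248294 and 38153438 normalized counts in TAM and between 25883561 and 27586429 in whole tumors. The spacing of low values gave an estimated depth of 0.832 to 1.94 normalized counts per read in TAM and 0.597 to 0.826 in whole tumors. Pik3cg, the targeted gene, was lower in every p110g-/- library than in any WT library of the same kind, at 242 to 417 against 487 to 616 normalized counts in whole tumors and at 1210 to 2211 against 2748 to 4477 in TAM. All 11 macrophage markers on the list used were above 0 in all TAM libraries. Fibroblast and matrix markers were also present in TAM, and their summed level varied from 738 to 41672 normalized counts among the p110g-/- libraries and from 2622 to 53579 among the WT libraries. The words rose and fell are kept for genes to which limma, fitted over all genes tested in that table, gave a Benjamini-Hochberg adjusted p below 0.05, and fold changes are on the scale of log2(normalized count + 1), p110g-/- over WT. Pik3cg itself did not pass this test in whole tumors (log2 fold change −0.83, adjusted p = 0.0555) or in TAM (−1.02, adjusted p = 0.299). With the replicate number as a block it passed in both (adjusted p = 0.0456 and 0.00557). A gene that did not pass is therefore not shown to be unchanged.

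In whole tumors, the IL-1 genes moved in different directions. Il1a fell in p110g-/- tumors, Il18bp and Casp1 rose, and the other 7 genes did not pass the test. Thus 2 of 10 genes rose and 1 fell, where 4.35% of the 12717 genes tested were called, 2.25% as higher and 2.1% as lower. The median log2 fold change of the 10 genes was −0.04, against 0.01 over all genes tested. For 4 of the 10 genes, Il1a, Il18bp, Casp1 and Il1r1, p110g-/- and WT tumors did not overlap, which was so for 31% of all genes tested. In a single fit over all 14 libraries, which pools the spread of TAM and whole tumor, none of the 3 calls held (adjusted p = 0.515 for Il1a, 0.120 for Il18bp and 0.543 for Casp1).

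Upstream sequences of the 3 called genes and of Il1b, the ligand encoded near Il1a on chromosome 2, are shown to set side by side the promoters of a ligand that fell and one that did not pass the test. Each is the 250 bases before the RefSeq start, 5′ to 3′ on the gene's strand, in build GRCm38.p6, whereas the submitters' processing notes name mm9. All 10 genes had at least one entry in that table. Capitals mark matches to 6 patterns: the TATA box TATAAA on the gene's strand, and on both strands AP-1 TGANTCA, GAS TTCNNNGAA, the ISRE core (GAAA, any 2 bases, GAAA), the C/EBP core TTGCNNAA and the kappa B site. No 2 marked matches overlapped here.
Il1a, chr2:129309973-129310222, minus strand: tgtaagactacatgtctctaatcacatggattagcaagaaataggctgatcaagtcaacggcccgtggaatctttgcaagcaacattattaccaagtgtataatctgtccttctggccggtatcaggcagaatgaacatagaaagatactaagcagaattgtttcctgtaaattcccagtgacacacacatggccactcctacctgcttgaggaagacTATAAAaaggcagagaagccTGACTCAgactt
Il1b, chr2:129371140-129371389, minus strand: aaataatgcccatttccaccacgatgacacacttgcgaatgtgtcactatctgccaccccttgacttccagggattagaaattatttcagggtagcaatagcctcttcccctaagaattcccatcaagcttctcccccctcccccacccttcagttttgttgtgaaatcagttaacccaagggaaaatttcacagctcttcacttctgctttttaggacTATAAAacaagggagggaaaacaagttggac
Il18bp, chr7:102018233-102018482, minus strand: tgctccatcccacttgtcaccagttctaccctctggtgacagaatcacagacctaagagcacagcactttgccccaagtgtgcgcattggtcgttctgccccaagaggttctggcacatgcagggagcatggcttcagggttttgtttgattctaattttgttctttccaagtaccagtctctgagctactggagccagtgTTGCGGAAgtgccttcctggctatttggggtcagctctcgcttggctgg
Casp1, chr9:5298267-5298516, plus strand: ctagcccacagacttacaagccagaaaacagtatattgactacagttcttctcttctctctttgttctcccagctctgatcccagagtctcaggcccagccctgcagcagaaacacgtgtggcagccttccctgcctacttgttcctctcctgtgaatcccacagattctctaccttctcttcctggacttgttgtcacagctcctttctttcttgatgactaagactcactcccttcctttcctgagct
Il1a held a TATA box from −32 to −27 and an AP-1 match from −12 to −6, counted from −1 at the base before the start, and Il1b held a TATA box from −31 to −26. Il18bp held a C/EBP core match from −49 to −42, and none of the 6 patterns was found in the 250 bases of Casp1. Among the 32851 RefSeq promoters cut to the same length, 7.59% held the TATA box, 6.75% the AP-1 pattern, 7.02% the GAS pattern, 2.98% the ISRE core, 9.56% the C/EBP core and 7.25% the kappa B site. A match describes the letters and is not a measured binding site.

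Il1a stood at 479, 220 and 311 normalized counts in p110g-/- tumors 1 to 3, against 781, 1381 and 1060 in WT tumors 1 to 3. Every p110g-/- tumor was below every WT tumor, and p110g-/- tumor 2 was the lowest. The mean was 337 ± 131 in p110g-/- tumors and 1074 ± 300 in WT tumors (SD, n = 3 and 3), a ratio of 0.313 (log2 fold change −1.70, SE 0.29, 95% interval −2.38 to −1.03, limma adjusted p = 0.0282). In bulk tissue, fewer cells of a type and less RNA per cell cannot be told apart. The keratin genes Krt18 and Krt8 also fell. They were the 2 called of 3 tested genes of an epithelial list, whose summed level over 4 genes was 9261 to 10625 in p110g-/- tumors and 13954 to 15071 in WT tumors. The sum of 8 monocyte markers was 87357 to 123942 in p110g-/- tumors and 126672 to 156142 in WT tumors, with no member called. None of these markers was at 0 in any tumor, and their part in the Il1a result was not tested. With a library left out in turn, the log2 fold change of Il1a stayed between −1.99 and −1.44. The call held without p110g-/- tumor 1 (adjusted p = 0.0106), a setting that called 980 of all genes tested as higher and 1021 as lower. It was lost without any other single library (adjusted p = 0.0528 to 0.100).

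Il1b was the most abundant of the 10 genes per length of exon in both tables. It stood at 16347, 9781 and 13853 normalized counts in p110g-/- tumors and at 10098, 16744 and 17030 in WT tumors, so the genotypes overlapped fully. The log2 fold change was −0.13 (SE 0.24, 95% interval −0.68 to 0.43, adjusted p = 0.772), and its sign turned without WT tumor 3 or p110g-/- tumor 2 (highest value 0.081). Il1rn stood at 4494, 3122 and 3918 in p110g-/- tumors and at 3518, 5110 and 5434 in WT tumors (log2 fold change −0.28, SE 0.18, 95% interval −0.70 to 0.15, adjusted p = 0.374). Il1b and Il1rn followed each other across the tumors, with Pearson's r of 0.94 between their log2 levels over the 6 libraries, given as a description.

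The balance of antagonist to ligand was taken within each tumor, where the scaling factor of the library cancels. Il1rn stood at 9.36, 14.1 and 12.6 times the Il1a value in p110g-/- tumors 1 to 3, against 4.50, 3.70 and 5.12 times in WT tumors 1 to 3. All 3 p110g-/- tumors were above all 3 WT tumors, and the log2 ratio averaged 3.57 ± 0.31 in p110g-/- tumors and 2.14 ± 0.24 in WT tumors. Since the fall of Il1a is one side of this ratio, it is no second result. The log2 ratio of Il1rn to Il1b was −1.78 ± 0.11 in p110g-/- tumors and −1.63 ± 0.10 in WT tumors, and the genotypes overlapped. These ratios compare normalized counts that are not corrected for gene length.

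**Figure D1:**
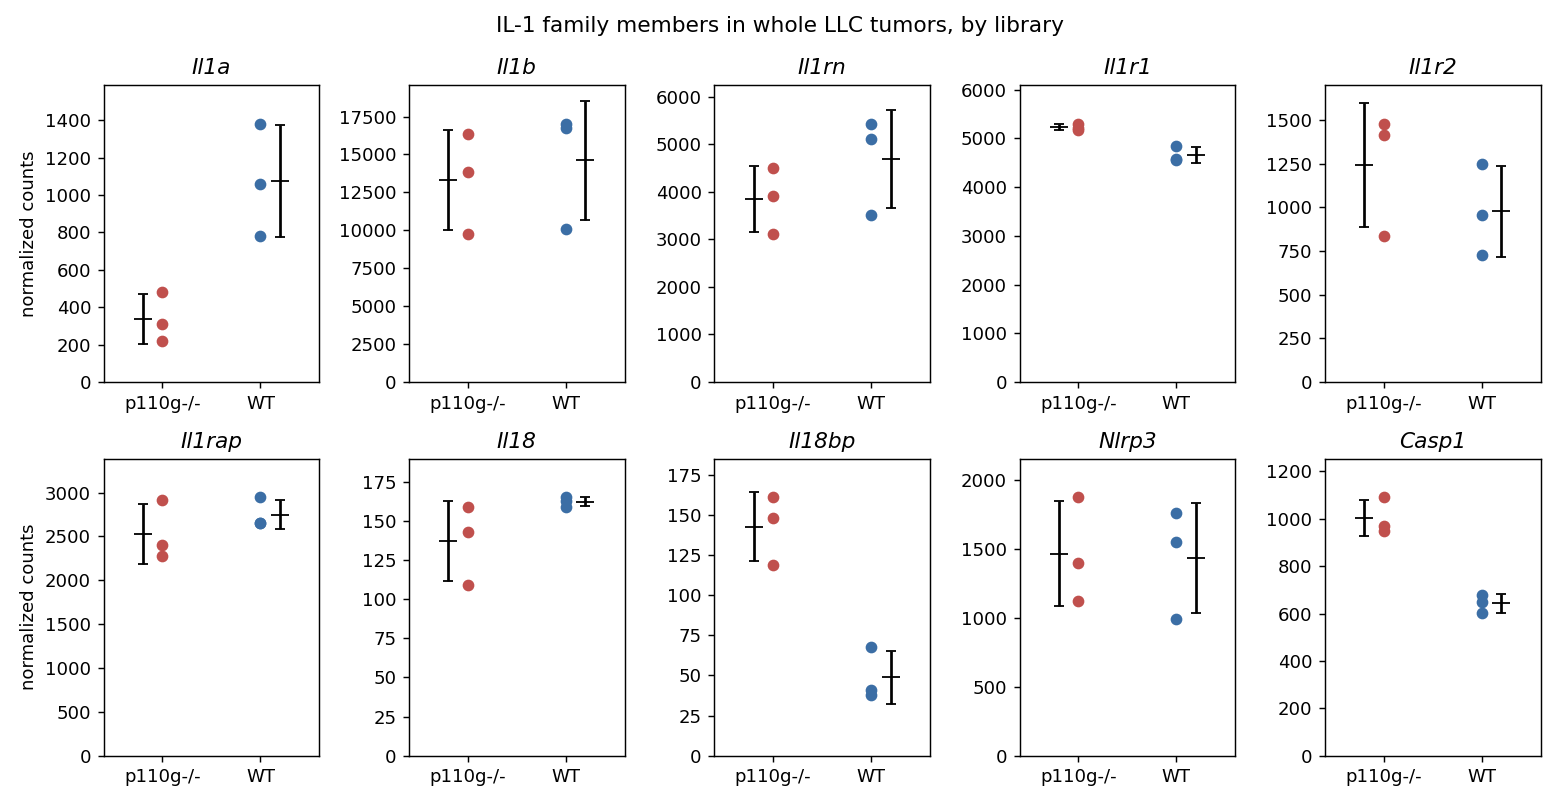
Normalized counts (vertical axes, starting at 0) of the 10 genes in whole LLC tumors, p110g-/- left (red) and WT right (blue); each point is a library and the black bars give the mean and SD of 3 libraries. Il1a is lower in all 3 p110g-/- tumors than in any WT tumor, Il18bp, Casp1 and Il1r1 are higher in all 3, and the genotypes overlap for the other genes.

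None of the 3 receptor genes passed the test in whole tumors. Il1r1, the signalling receptor, stood at 5303, 5178 and 5208 normalized counts in p110g-/- tumors and at 4852, 4556 and 4568 in WT tumors. The spread was small in both genotypes and the values did not overlap, but the gene did not pass the test (log2 fold change 0.17, SE 0.05, 95% interval 0.06 to 0.27, adjusted p = 0.0751). It passed when libraries were rescaled to equal totals (adjusted p = 0.0469) and with sample quality weights (adjusted p = 0.0251). Over all genes tested, equal totals called 393 as higher and 182 as lower, and the weights 1154 as higher and 1154 as lower. The main fit called 286 and 267. The decoy receptor Il1r2 stood at 1480, 835 and 1414 in p110g-/- tumors and at 729, 1250 and 958 in WT tumors (log2 fold change 0.33, SE 0.25, 95% interval −0.25 to 0.92, adjusted p = 0.437). Il1rap, the accessory chain, stood at 2921, 2273 and 2400 in p110g-/- tumors and at 2945, 2653 and 2649 in WT tumors (log2 fold change −0.13, SE 0.10, 95% interval −0.35 to 0.10, adjusted p = 0.439). Il1rap passed only without p110g-/- tumor 1 among the libraries left out in turn (log2 fold change −0.23, adjusted p = 0.0469). That setting called 980 of all genes tested as higher and 1021 as lower.

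Il18bp, the IL-18 antagonist, stood at 119, 161 and 148 normalized counts in p110g-/- tumors 1 to 3, against 41, 38 and 68 in WT tumors 1 to 3. All p110g-/- tumors were above all WT tumors. The mean was 143 ± 21.5 in p110g-/- tumors and 49.0 ± 16.5 in WT tumors, a ratio of 2.91 (log2 fold change 1.56, SE 0.24, 95% interval 1.00 to 2.12, adjusted p = 0.0227). These levels lie well above 3 reads, which correspond to 1.79 to 2.48 normalized counts in the tumor libraries, counting error only. Il18, the cytokine gene, stood at 143, 109 and 159 in p110g-/- tumors and at 163, 165 and 159 in WT tumors. The highest p110g-/- tumor equalled the lowest WT tumor, and Il18 did not pass the test (log2 fold change −0.26, SE 0.15, 95% interval −0.61 to 0.09, adjusted p = 0.318).

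Casp1, which cuts pro-IL-1 beta and pro-IL-18, stood at 968, 949 and 1090 normalized counts in p110g-/- tumors and at 680, 601 and 647 in WT tumors. The genotypes were well separated, with a mean of 1002 ± 76.5 in p110g-/- tumors and 643 ± 39.7 in WT tumors (log2 fold change 0.64, SE 0.08, 95% interval 0.46 to 0.82, adjusted p = 0.0114). Nlrp3, the inflammasome sensor, stood at 1872, 1122 and 1398 in p110g-/- tumors and at 989, 1757 and 1549 in WT tumors. Its values overlapped fully (log2 fold change 0.04, SE 0.24, 95% interval −0.52 to 0.60, adjusted p = 0.933), and the sign turned without WT tumor 1 or p110g-/- tumor 1 (lowest value −0.20). Nlrp3 tracked Il1b across the 6 tumors (r = 0.94 between log2 levels, a description), both being high in p110g-/- tumor 1 and low in WT tumor 1 and p110g-/- tumor 2.

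The summed T cell markers and the summed cytotoxic and NK markers were higher in every p110g-/- tumor than in any WT tumor, as Il18bp and Casp1 were. Of 8 T cell markers, 5 rose and none fell, and the sum was 510 to 678 normalized counts in p110g-/- tumors and 119 to 282 in WT tumors. Of 9 cytotoxic and NK markers, 3 rose and none fell, and the sum was 731 to 1431 in p110g-/- tumors and 301 to 601 in WT tumors. The granzyme gene Gzma, on the cytotoxic list, did not pass and had a negative log2 fold change, at 56.0 ± 19.2 in p110g-/- tumors and 77.7 ± 33.7 in WT tumors (−0.43, adjusted p = 0.446). No marker of either list was at 0 in any tumor. The sum of 8 endothelial markers was also higher in every p110g-/- tumor, at 1591 to 1921 in p110g-/- tumors and 940 to 1522 in WT tumors, with no member called. Log2 fold changes were positive for all 11 macrophage markers and for 8 of 9 neutrophil markers, with none called. Their sums overlapped, at 50691 to 78739 in p110g-/- and 44680 to 66831 in WT tumors for macrophages. For neutrophils they were 15560 to 20499 in p110g-/- and 11417 to 18175 in WT tumors. Over all genes tested, the genotypes did not overlap for 31%, so separation alone does not single out a cell type. The part of these markers in the rise of Il18bp and Casp1 was not tested. With a library left out in turn, the log2 fold change stayed between 0.58 and 0.68 for Casp1 and between 1.40 and 1.82 for Il18bp. Casp1 lost its call without WT tumor 2 (adjusted p = 0.0574) or p110g-/- tumor 2 (adjusted p = 0.0531), and Il18bp without WT tumor 1 or 2 or p110g-/- tumor 2 or 3 (adjusted p = 0.0711 to 0.0955).

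**Figure D2:**
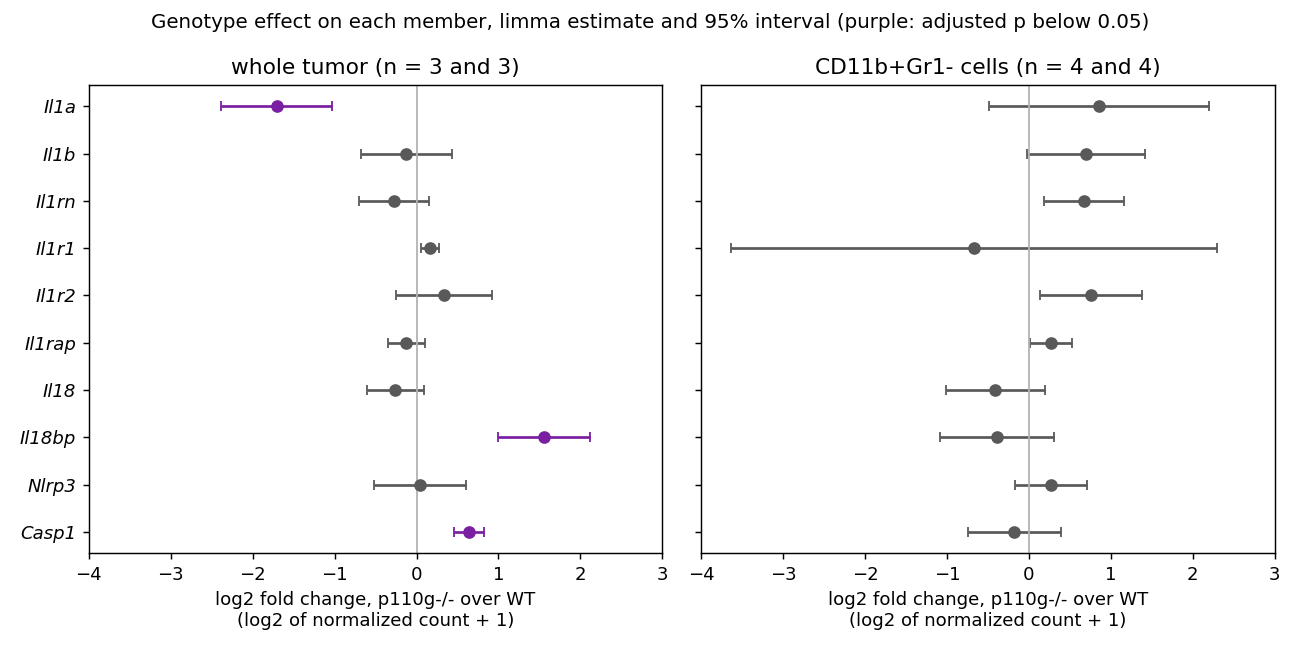
Log2 fold change of each gene, p110g-/- over WT (horizontal axis), in whole tumor (left) and in CD11b+Gr1- cells (right); points are limma estimates, bars 95% intervals, and purple marks an adjusted p below 0.05. Il1a at −1.70, Il18bp at 1.56 and Casp1 at 0.64 are called in whole tumor, and no gene is called in CD11b+Gr1- cells, where the interval of Il1r1 is the widest.

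The share of genes called in whole tumors, 4.35% of all genes tested, is the background for 4 further lists of pathway genes. Of 7 other IL-1 family ligands and receptors in the tables, 1 rose and none fell: Il18r1, the ligand-binding chain of the IL-18 receptor, was at 93.0 ± 16.7 normalized counts in p110g-/- tumors and 37.3 ± 11.6 in WT tumors (log2 fold change 1.33, SE 0.26, adjusted p = 0.0369). Of 16 genes of IL-1 receptor signalling, 1 fell and none rose: Tab1, a partner of the kinase TAK1, was at 802 ± 55.2 in p110g-/- tumors and 999 ± 6.11 in WT tumors (log2 fold change −0.32, SE 0.06, adjusted p = 0.0396). None of 22 inflammasome and pyroptosis partners was called in limma. Of that list, Nlrp12, of the same gene family as Nlrp3, had the largest log2 fold change, 1.08 (adjusted p = 0.122). Nlrc4 had one of 0.73 (adjusted p = 0.0744), and Mefv, which encodes pyrin, one of 0.66 (adjusted p = 0.0661, and 0.0314 with the replicate number as a block). Of 21 genes known to respond to IL-1, 1 rose and none fell: Vcam1, an adhesion molecule, was at 4469 ± 374 in p110g-/- tumors and 3579 ± 148 in WT tumors (log2 fold change 0.32, SE 0.07, adjusted p = 0.0455, and 0.0577 with the block). Icam1, another adhesion molecule of that list, passed with the block only, at 809 ± 182 in p110g-/- tumors and 537 ± 112 in WT tumors (log2 fold change 0.59, SE 0.20, adjusted p = 0.118, and 0.0134 with the block). The median log2 fold changes were 0.06, 0.08, 0.06 and 0.32 for these 4 lists in the order given, against 0.01 over all genes tested. The chemokine gene Cxcl2 (log2 fold change 0.02, adjusted p = 0.969) and the prostaglandin synthase gene Ptgs2 (0.53, adjusted p = 0.304), which respond to IL-1, did not pass the test in whole tumors.

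In sorted TAM, none of the 10 genes passed the test (0 of 10 in limma, and 0 of 10 with the replicate number as a block). Over all 12475 genes tested, 0.112% were called, and 2.5% with the block. At an unadjusted p below 0.05 there were 3 of the 10 genes, Il1rn, Il1r2 and Il1rap, against 5.87% of all genes tested. With sample quality weights, 4 of the 10 passed, all higher in p110g-/- TAM: Il1rn (adjusted p = 0.0022), Il1r2 (0.00311), Il1b (0.0146) and Nlrp3 (0.0235). Over all 12475 genes tested, those weights called 654 as higher and 345 as lower, against 9 and 5 without them. The median log2 fold change of the 10 genes was 0.27, against −0.01 over all genes tested. Same-numbered libraries of the genotypes were alike in TAM, so the direction in each pair is given beside the group values. The number did not separate libraries 3 and 4, since p110g-/- TAM 4 correlated at 0.697 with WT TAM 3 and 0.671 with WT TAM 4. The labels do not say what the number marks. For 7 of the 10 genes all 4 pairs differed in the same direction, which was so for 26.5% of all genes tested.

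The ligand Il1b stood at 11627, 7227, 10910 and 20533 normalized counts in p110g-/- TAM 1 to 4, against 10625, 6257, 6113 and 6575 in WT TAM 1 to 4. It was higher in p110g-/- TAM in all 4 pairs, by little in pairs 1 and 2 (log2 differences 0.13 and 0.21) and by more in pairs 3 and 4 (0.84 and 1.64). The log2 fold change was 0.70 (SE 0.31, 95% interval −0.02 to 1.42, adjusted p = 0.870, and 0.192 with the block). It was 0.43 without p110g-/- TAM 4. Il1rn stood at 5064, 7522, 7478 and 9266 in p110g-/- TAM and at 6087, 4536, 4103 and 3595 in WT TAM. It was higher in pairs 2 to 4 and lower in pair 1 (log2 fold change 0.67, SE 0.21, 95% interval 0.18 to 1.16, adjusted p = 0.564). With both libraries numbered 1 left out, Il1rn passed the test (log2 fold change 0.99, SE 0.12, adjusted p = 0.0194) and was the 1 gene of the 10 that did. That setting called 72 of 12546 genes tested as higher and 61 as lower. With the libraries numbered 3 and 4 left out, the log2 fold changes were 0.17 for Il1b, 0.23 for Il1rn and 0.21 for Il1r2, and none of the 3 passed. Libraries 3 and 4 had the higher shares of mitochondrial genes, at 9.01% and 14.4% in p110g-/- TAM and 7.70% and 9.59% in WT TAM, and the part of this in the 3 genes was not tested.

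Il1a was low in TAM, at 68, 129, 87 and 258 normalized counts in p110g-/- TAM and at 168, 33, 76 and 42 in WT TAM, where 3 reads correspond to 2.50 to 5.81 normalized counts. The genotypes overlapped, with 3 pairs higher and 1 lower in p110g-/- TAM (log2 fold change 0.86, SE 0.59, 95% interval −0.49 to 2.20, adjusted p = 0.999). The log2 ratio of Il1rn to Il1a was 5.91 ± 0.55 in p110g-/- TAM and 6.09 ± 0.82 in WT TAM (SD, n = 4 and 4). That of Il1rn to Il1b was −0.71 ± 0.59 in p110g-/- TAM and −0.68 ± 0.19 in WT TAM. Neither ratio separated the genotypes in TAM.

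**Figure D3:**
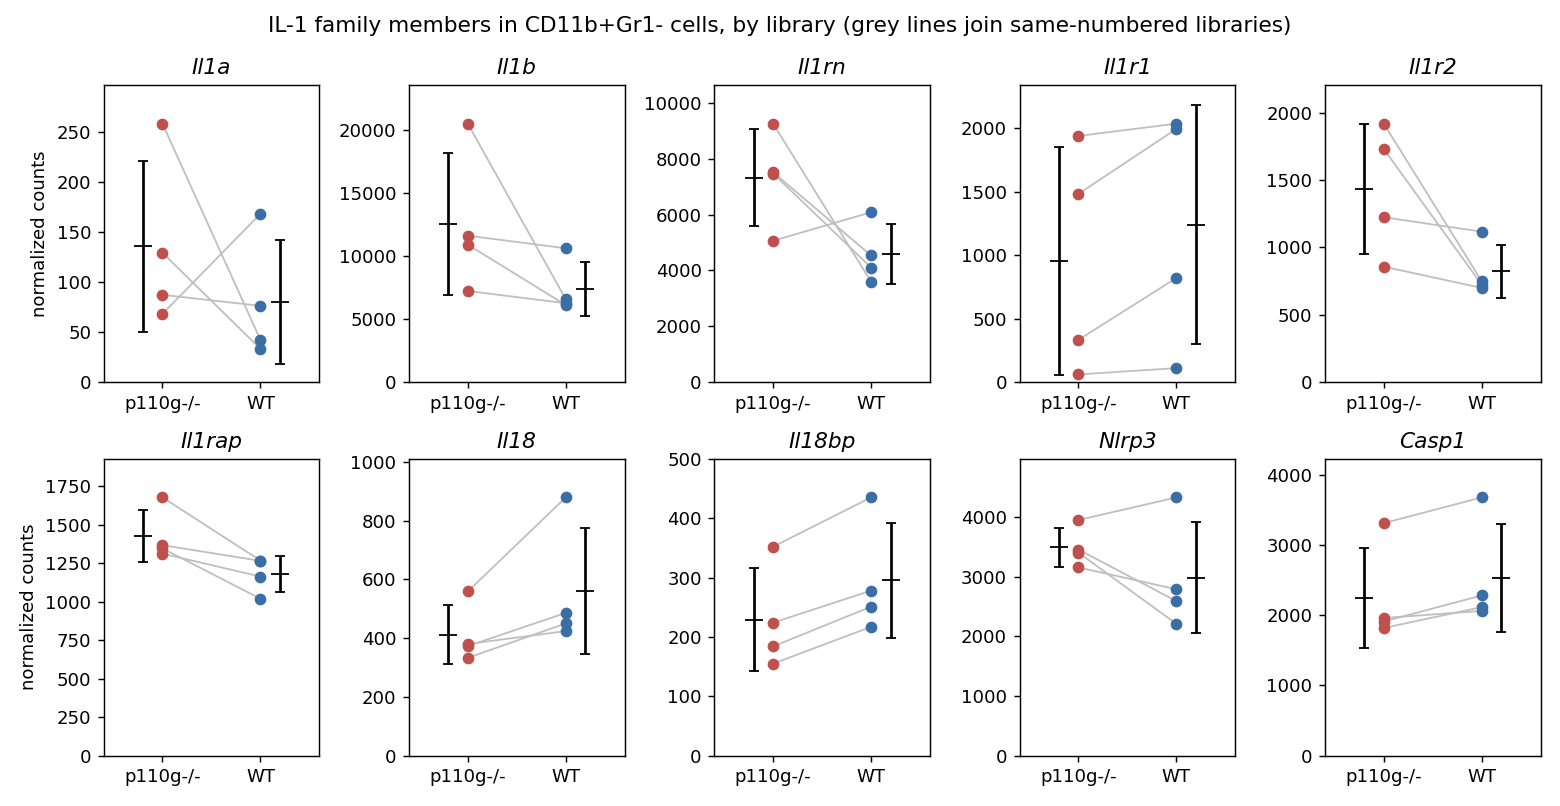
Normalized counts (vertical axes, starting at 0) of the 10 genes in CD11b+Gr1- cells, p110g-/- left (red) and WT right (blue); each point is a library, grey lines join libraries of the same number, and the black bars give the mean and SD of 4 libraries. Casp1, Il18, Il18bp and Il1r1 are lower in p110g-/- cells along all 4 lines, and Il1b, Il1r2 and Il1rap are higher along all 4.

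Among the receptors in TAM, Il1r2 stood at 1223, 856, 1730 and 1918 normalized counts in p110g-/- TAM and at 1116, 698, 722 and 748 in WT TAM. It was higher in all 4 pairs, most in pairs 3 and 4 (log2 fold change 0.76, SE 0.27, 95% interval 0.14 to 1.38, adjusted p = 0.649). Il1r2 is known for its expression in neutrophils, which a sort of Gr1- cells should remove. The sum of 9 neutrophil markers was 11909 to 19460 in p110g-/- TAM and 8414 to 16365 in WT TAM, with 7 markers tested and none called. Most of that sum was Mmp9, which macrophages also express, at 13042 ± 4088 in p110g-/- TAM and 10815 ± 4741 in WT TAM. S100a9 was at 63.5 ± 44.0 in p110g-/- TAM and 54.5 ± 31.4 in WT TAM, and Retnlg and Ltf were at 0 in some libraries. Of the 7 markers tested, 6 had a positive log2 fold change and 1 a negative one (median 0.37). The largest was that of S100a8, at 198 ± 71.4 in p110g-/- TAM and 107 ± 86.8 in WT TAM (1.14, adjusted p = 0.979). Hdc followed, at 134 ± 92.9 in p110g-/- TAM and 59.2 ± 27.2 in WT TAM (1.05, adjusted p = 0.917). The part of neutrophils in the Il1r2 values was not tested. Il1rap stood at 1346, 1367, 1677 and 1312 in p110g-/- TAM and at 1019, 1265, 1267 and 1163 in WT TAM. It was the 1 gene of the 10 whose genotypes did not overlap in TAM, against 4.3% of all genes tested (log2 fold change 0.27, SE 0.11, 95% interval 0.02 to 0.53, adjusted p = 0.797).

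Il1r1 had the largest SE of the 10 genes in TAM. It stood at 59, 332, 1941 and 1484 normalized counts in p110g-/- TAM and at 109, 820, 2038 and 1997 in WT TAM. It was low in libraries 1 and high in libraries 3 and 4 of both genotypes, and lower in p110g-/- TAM in all 4 pairs (log2 fold change −0.67, SE 1.29, 95% interval −3.63 to 2.30, adjusted p = 0.999). With the number as a block the interval was −1.13 to −0.21 (SE 0.19, adjusted p = 0.139). Without p110g-/- TAM 1 the sign turned to 0.34. The summed fibroblast and matrix markers were likewise lowest in libraries 1 and highest in libraries 3 and 4, at 738, 8743, 41672 and 30439 in p110g-/- TAM 1 to 4 and at 2622, 26194, 47998 and 53579 in WT TAM 1 to 4. All 10 markers of that list were above 0 in every TAM library, and the part of these cells in the Il1r1 values was not tested. The share of mitochondrial genes was also higher in libraries 3 and 4, against 2.51% to 3.21% in the TAM libraries numbered 1 and 2.

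Il18, Il18bp and Casp1 were each lower in p110g-/- TAM in all 4 pairs. Il18 stood at 559, 373, 380 and 333 normalized counts in p110g-/- TAM and at 879, 486, 424 and 450 in WT TAM (log2 fold change −0.41, SE 0.26, 95% interval −1.01 to 0.20, adjusted p = 0.999, and 0.112 with the block). Il18bp stood at 352, 224, 155 and 184 in p110g-/- TAM and at 435, 278, 217 and 251 in WT TAM (log2 fold change −0.39, SE 0.30, 95% interval −1.08 to 0.31, adjusted p = 0.999, and 0.125 with the block). Casp1 stood at 3309, 1817, 1959 and 1909 in p110g-/- TAM and at 3675, 2114, 2060 and 2280 in WT TAM. All 3 genes were highest in library 1 of each genotype. The Casp1 difference was small in each pair, with log2 differences of −0.26 to −0.07 (log2 fold change −0.18, SE 0.25, 95% interval −0.74 to 0.39, adjusted p = 0.999, and 0.177 with the block), and its unpaired sign turned without WT TAM 1 (0.019). Nlrp3 stood at 3948, 3154, 3454 and 3401 in p110g-/- TAM and at 4327, 2788, 2589 and 2208 in WT TAM, higher in pairs 2 to 4 (log2 fold change 0.27, SE 0.19, 95% interval −0.17 to 0.71, adjusted p = 0.999).

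**Figure D4:**
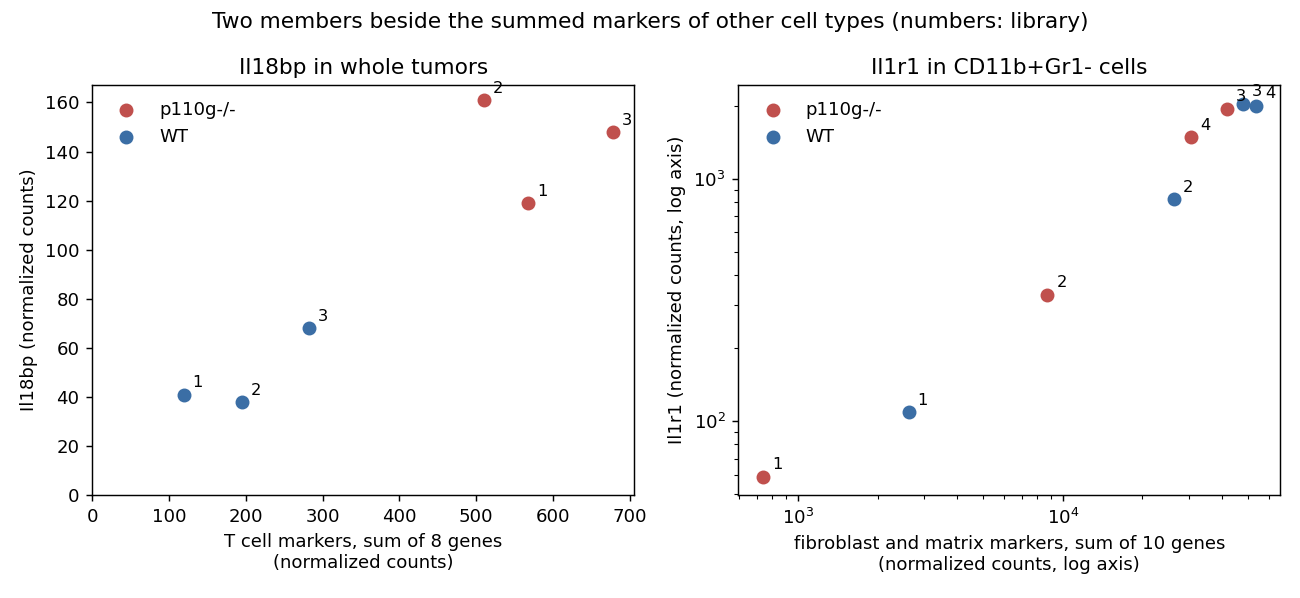
Left, Il18bp in whole tumors (vertical axis) against the sum of 8 T cell markers (horizontal axis), both in normalized counts; right, Il1r1 in CD11b+Gr1- cells against the sum of 10 fibroblast and matrix markers, both on log axes. Points are libraries, p110g-/- in red and WT in blue, with their number beside them; the 3 p110g-/- tumors lie above and to the right of the WT tumors, and Il1r1 runs from 59 in the library with a marker sum of 738 to 2038 in one with 47998.

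In the pathway lists, no gene passed the test in TAM without the block. With the block, 3 of 20 tested genes known to respond to IL-1 were called, all higher: Cxcl2 (log2 fold change 1.91, adjusted p = 0.417, and 0.0172 with the block) and Cxcl1 (1.54, adjusted p = 0.595, and 0.0470 with the block), which attract neutrophils, and Ptgs2 (0.80, adjusted p = 0.946, and 0.0132 with the block). Over all 12475 genes tested, 2.5% were called with the block. Of the 20 response genes tested, 13 had a positive log2 fold change and 7 a negative one. The genotypes overlapped for each of the 3 called genes. Cxcl2 was at 16376 ± 5885 normalized counts in p110g-/- TAM and 5391 ± 5056 in WT TAM. None of the 7 other IL-1 family genes, the 16 receptor signalling genes or the 21 tested inflammasome partners was called in TAM in either fit. Pycard, the adaptor that joins Nlrp3 to Casp1, was at 3227 ± 277 in p110g-/- TAM and 4263 ± 1046 in WT TAM (log2 fold change −0.37, SE 0.18, adjusted p = 0.922).

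Whether the genotype effect differed between TAM and whole tumor was tested by subtracting the log2 fold change in whole tumor from that in TAM, each taken within its own table. Without the block, 0 of the 10 genes passed in limma, where 0.14% of the 12821 genes tested did, and 5 of the 10 had an unadjusted p below 0.05, against 6.51% of all genes tested. With the replicate number as a block, 2 of the 10 genes passed, both with a negative difference, where 2.61% of all genes tested did and 2.18% with a negative difference. For Il18bp the difference was −1.95 (SE 0.44, adjusted p = 0.155, and SE 0.23, adjusted p = 0.00316 with the block), and for Casp1 it was −0.81 (SE 0.31, adjusted p = 0.594, and SE 0.09, adjusted p = 0.0019 with the block). For both genes every p110g-/- tumor was above every WT tumor, so any pairing of the tumors gives that direction. Both were lower in p110g-/- TAM in all 4 same-numbered pairs. Without p110g-/- TAM 1, Il18bp passed without the block as well (adjusted p = 0.0345). Of 12817 genes tested in that setting, 16 were called with a positive difference and 79 with a negative one. For Il1a the difference was 2.56 (SE 0.78, 95% interval 0.86 to 4.26, adjusted p = 0.393, and 0.171 with the block), and so a differing effect was not called.

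Levels in the sorted cells and in whole tumors are set side by side per 1000000 normalized counts of the library, with no test, because the tables were normalized separately. In p110g-/- mice, Il1a stood at 2.03 to 6.76 in TAM and 8.50 to 17.6 in whole tumors, and in WT mice at 0.988 to 4.89 in TAM and 28.6 to 50.7 in whole tumors. Il1a, Il1b, Il1r1, Il1r2 and Il1rap had lower means in TAM than in whole tumor in both genotypes. For Il1b the means were 353 in TAM and 500 in whole tumors of p110g-/- mice, and 219 in TAM and 534 in whole tumors of WT mice. Il18, Il18bp, Nlrp3 and Casp1 had higher means in TAM in both genotypes. Casp1 averaged 64.7 in TAM and 37.8 in whole tumors of p110g-/- mice, and 74.8 in TAM and 23.5 in whole tumors of WT mice. Il1rn had a different order in each genotype, since in p110g-/- mice it averaged 208 in TAM and 145 in whole tumors and in WT mice 136 in TAM and 171 in whole tumors.

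To rank the genes against each other, normalized counts were divided by exon length in kilobases. In p110g-/- tumors the order of the means was Il1b, Il1rn, Il1r2, Il1r1, Casp1, Nlrp3, Il1rap, Il1a, Il18 and Il18bp, and in WT tumors it was Il1b, Il1rn, Il1r1, Il1r2, Il1a, Casp1, Nlrp3, Il1rap, Il18 and Il18bp. Il1a thus stood at 171 ± 66.6 per kilobase in p110g-/- tumors and at 544 ± 152 in WT tumors, and its neighbours in WT, Il1r2 (690 ± 184) and Casp1 (429 ± 26.5), lay within the spread. Il1b stood apart, at 9828 ± 2444 in p110g-/- tumors and 10785 ± 2893 in WT tumors. Il18bp was the lowest, at 47.1 ± 7.11 in p110g-/- tumors and 16.2 ± 5.46 in WT tumors. In TAM, Il1b was again first, at 9273 ± 4163 in p110g-/- and 5452 ± 1596 in WT. Il1rn followed, at 2710 ± 638 in p110g-/- and 1693 ± 397 in WT, and then Casp1, at 1502 ± 474 in p110g-/- and 1692 ± 513 in WT. In WT TAM these 2 genes did not differ beyond their spread. Il1a was the lowest in TAM of both genotypes, at 68.6 ± 43.3 in p110g-/- and 40.4 ± 31.2 in WT, and Il18bp, its neighbour in p110g-/- TAM at 75.6 ± 28.7, did not differ from it beyond the spread.

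The genes most like the ligands and the antagonist were found by Pearson's r of log2 level minus the mean of the table, over all 14 libraries and 12396 genes, as a description. For Il1a they were Osm (r = 0.86), the IL-6 family cytokine oncostatin M, Plaur (0.85), the urokinase receptor, and Clec4n (0.84), which encodes the C-type lectin receptor dectin-2. The genotype difference of Il1a in whole tumors entered this choice, so the direction of these genes there is partly fixed by it. Osm and Plaur were among the genes that fell in p110g-/- tumors, with Osm at 1960 ± 334 normalized counts in p110g-/- and 4291 ± 1375 in WT (log2 fold change −1.09, adjusted p = 0.0436) and Plaur at 2964 ± 336 in p110g-/- and 4230 ± 528 in WT (−0.51, adjusted p = 0.0462). For Il1b they were Adam23 (r = 0.94), Ramp3 (0.92) and Dusp5 (0.91), a phosphatase gene for the kinase ERK, and for Il1rn they were Clec4n (0.92), Csrnp1 (0.89) and Pdpn (0.89), which encodes podoplanin. None of these 6 further genes passed the test in either table. The libraries behind each r share their tumors, sorts and normalization.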

How the data were processed

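Gene-level values of 14 libraries were analysed as the authors deposited them, in a table of TAM and a table of whole tumors. The submitters' processing notes name Bowtie2, DESeq and build mm9; the counting tool, its annotation and its treatment of shared reads are not given in those notes or the labels. The deposited values are a score: counts scaled by a single factor per library and rounded to whole numbers, read from the spacing of low values, which also gave the estimated depth. Since a count model needs raw counts, the test was instead limma 3.58.1 (R 4.3.3) with a mean-dependent prior, fitted within each table on log2(normalized count + 1). The filter asked for 10 normalized counts in 4 libraries of the TAM table, 3 of the tumor table, or 3 of all 14 for the difference between them. Tests were two-sided with Benjamini-Hochberg adjustment at 0.05. They were also run on simulated counts with a single setting of spread for all genes and no differences shared by a library. The TAM libraries do carry such shared differences, so the simulated run cannot show how the tests perform on them.

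The 10 genes and all lists were chosen with earlier results of these data known. Named genes are the 10, the called genes of 4 pathway lists (at most the 4 largest, or the 2 largest where none was called), the 3 genes most like each ligand and Il1rn, and, chosen after their values were seen, the list genes called with the block in TAM or whole tumors (Mefv, Icam1, Cxcl1, Cxcl2, Ptgs2), Cxcl2 and Ptgs2 also in whole tumors, and markers named beside a result. The authors' pp column, of unstated meaning, was not used. Deviations of same-numbered libraries from their group means correlated at 0.559 to 0.826 in TAM (4 pairs, 11565 genes) and 0.117 to 0.181 in whole tumors (3 pairs, 12430 genes). A fit with the replicate number as a block was therefore an alternative. Differently numbered libraries reached 0.747 in TAM, between p110g-/- TAM 3 and WT TAM 4, and 0.143 in whole tumors. The number is thus no clear pairing among TAM libraries 3 and 4 or among the tumors. Exon lengths are the union of exons in GENCODE M21 (GRCm38), which may not be the authors' annotation. Promoter sequences are RefSeq's (GRCm38.p6).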

Additional observations from a re-analysis of the deposited data

Results flagged for a closer look

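In 6 of the 20 groups of 4 TAM libraries, 1 library stood far from the other 3, where chance gives about 1 in 20. Library 1 was the highest in 5 of these: Casp1 in p110g-/- TAM (3309 normalized counts) and in WT TAM (3675), and Il1b (10625), Il1r2 (1116) and Il18 (879) in WT TAM. The last was Il1rap in p110g-/- TAM 3 (1677). The 20 groups hold the same 8 libraries, and genes such as Il18 and Casp1 follow each other across them (r = 0.92). The 6 groups are thus not independent, and setting them beside 1 in 20 is no test. The genotype effect also differed between TAM and whole tumor for Casp1 (−0.81 on the log2 scale) and Il18bp (−1.95), tested with the replicate number as a block. Neither gene passed without the block (limma adjusted p = 0.594 for Casp1 and 0.155 for Il18bp).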

How the results depend on the processing

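Sample quality weights changed the counts most. In TAM they called 999 genes and 4 of the 10 (Il1b, Il1rn, Il1r2, Nlrp3), in whole tumor 2308 genes and 4 of the 10 (Il1r1 besides the 3), and for the difference of effects 1892 genes and 7 of the 10. They also turned the sign of Nlrp3 in whole tumor (−0.25) and of the difference for Il18 (0.095). A single fit over all 14 libraries called 88 genes in TAM but 15 in whole tumor and 0 of the 10 there. The replicate block called 312 genes in TAM, and 335 genes and 2 of the 10 for the difference, and changed no other call of the 10. In TAM, 9 genes were called with a minimum of 50, 0 without the libraries numbered 3 and 4, and 133, with 1 of the 10, without those numbered 1. For whole tumor, equal totals called 393 genes higher and 182 lower, against 286 and 267. The cause was not tested.

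With a library left out in turn, TAM counts ran from 3 to 40 genes and 0 of the 10, whole tumor counts from 29 to 2001 genes and 0 to 4 of the 10, and the difference from 0 to 95 genes and 0 to 1 of the 10. Log2 fold changes that turned sign ranged in TAM from −0.38 to 0.019 for Casp1 and −1.61 to 0.34 for Il1r1, and in whole tumor from −0.37 to 0.081 for Il1b and −0.20 to 0.22 for Nlrp3. For the difference they ranged from −0.30 to 0.093 for Il18 and −1.78 to 0.17 for Il1r1. With 4 or 3 libraries a group, the number of libraries limits the precision.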
